A study of Mus musculus with 8 samples.

Results

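The genes described here were 35 genes of stromal matrix and mesenchymal cells, read as a measure of stromal RNA carried over into blood progenitors that were grown on a stromal layer. A gene was measured where a probeset of the array was annotated to it and to no other gene. This held for 34 of the 35 genes, each with 1 probeset, out of 21789 such probesets for 19938 genes. Fbn1 was not analysed here. The cultures began from lymphoid primed multipotent progenitors (LMPPs, marrow cells that can still give lymphoid and myeloid offspring) of Tcf7+/+ (Tcf1 wildtype) or Tcf7-/- (Tcf1 deficient) mice of a backcrossed line of mixed background. All groups shared 4 days on a confluent layer of OP9-DL4 cells with Flt3L at 5 ng/ml and the cytokine labelled IL1 at 1 ng/ml. Live CD45.2-positive cells were then sorted into 3 groups of arrays, called T lineage, deficient lineage-negative and wildtype lineage-negative below. The wildtype T lineage cells (Thy1 and CD25 positive, 2 replicates) have no deficient counterpart, because per the labels deficient progenitors gave rise to none. The deficient and the wildtype lineage-negative cells (Mac1, Gr1, Thy1 and CD25 negative) came from 3 mice each. Whether the T lineage replicates came from the same mice as the lineage-negative cells is not given in the sources used here, so p-values cover the spread between these arrays only.

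OP9 is a mouse stromal cell line with properties of preadipocytes, and OP9-DL4 is a form of it made to present the Notch ligand Delta-like 4, which drives progenitors towards the T lineage. Mesenchymal stromal cells secrete collagens, proteoglycans and glycoproteins, the enzymes that fold and crosslink them, and the proteases and inhibitors that control their turnover. Blood cells make little fibrillar collagen, decorin or lumican, but cells of the blood lineages do make some members of the set, among them Thbs1, Fn1, Timp2 and Tpm1, so these are less particular to stroma. The CD45.2 gate was meant to leave the stromal cells behind, since these are not blood cells. OP9-DL4 cells on their own were not analysed here, so the value that a given share of stromal RNA would produce is unknown.

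The arrays were alike in their medians, from 6.85 to 6.91 on the log2 scale, and lineage-negative arrays of different genotype correlated across probesets with r of 0.995 to 0.997, as arrays of the same group did. The 15 leukocyte genes of a blood marker list, which include Ptprc, the gene of the sort marker CD45, were bright in all 3 groups. Their mean level lay between 10.31 and 10.34 in the T lineage arrays, between 10.71 and 10.78 in the deficient and between 10.65 and 10.81 in the wildtype lineage-negative arrays. All 8 T lineage genes measured were higher in T lineage cells than in either lineage-negative group. The list as named holds Thy1 and Il2ra, the gene of CD25. These are markers of the sort gate, so part of this result was set by the sort. The genotypes are taken from the labels alone, and Tcf7 itself was not analysed here.

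The stromal matrix genes were dim to middling on these arrays, and most varied by less than 0.5 log2 units over the 8 arrays. As a scale for dim signal, the 1035 probesets of olfactory receptor genes, which are not thought to be transcribed in blood cells, had mean log2 values over the 8 arrays with a median of 4.76 and a 95th percentile of 6.51. Of the 34 members, 15 lay at or under that 95th percentile and 19 above it, while 61.1% of all tested probesets lay above it. Among the 8 members that best define fibroblast-like cells, 4 lay at or under it, namely Lum, Postn, Dcn and Pdgfra. The other 4, Col1a1, Col1a2, Col3a1 and Pdgfrb, lay above it. Brightness is not an amount of RNA, since probesets differ in how well they bind, so a value above the olfactory range is not by itself a transcript of stromal cells. Over the 8 arrays the typical member varied by as much as the typical gene. The median range from the lowest to the highest array was 0.37 log2 units for the members and 0.36 for all tested probesets. Of the members, 25 stayed within 0.5 log2 units. Thbs1, Timp3 and Cxcl12, 3 of the 34, spanned more than 1, where 5.52% of all tested probesets did. The median SD within a group was 0.103 for the members and 0.087 for all tested probesets.

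**Figure D1:**
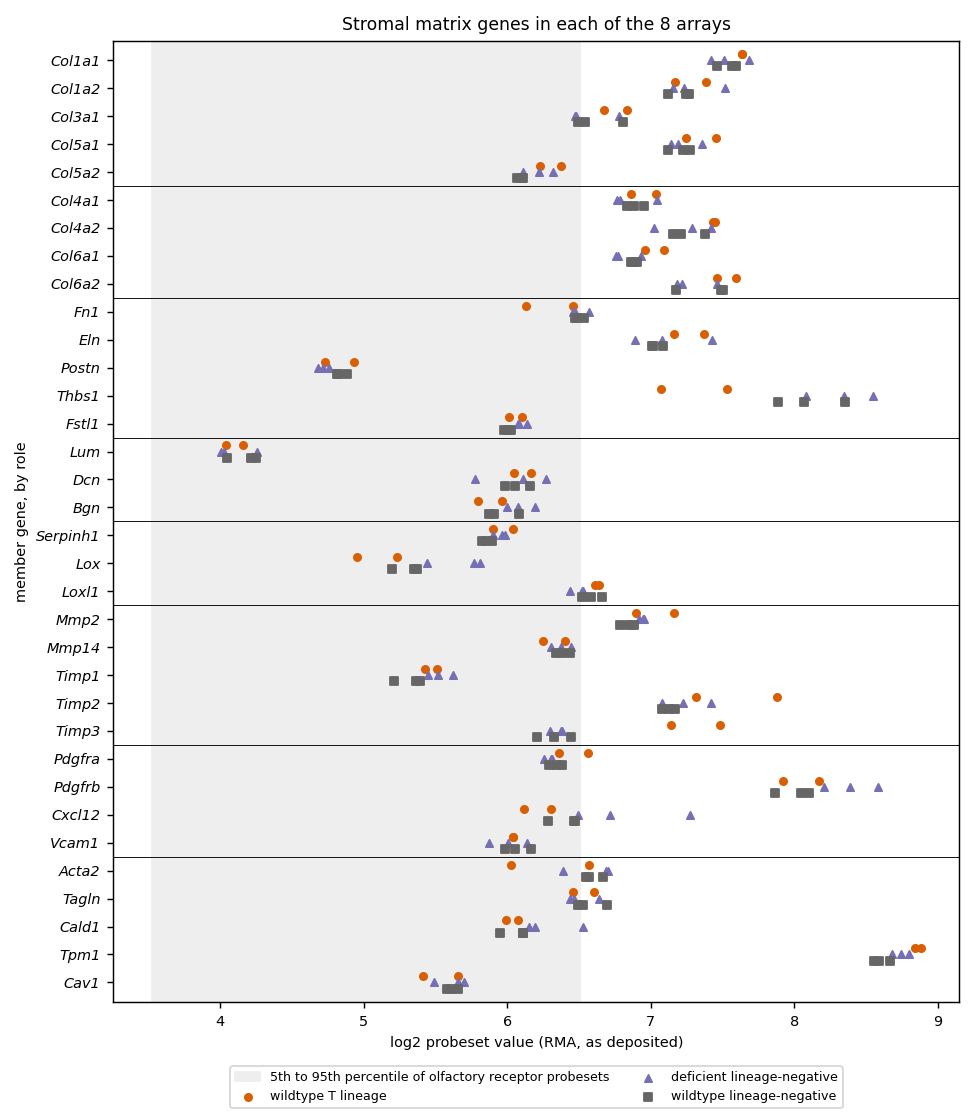
Log2 probeset value (horizontal axis) of each of the 34 stromal matrix genes in each of the 8 arrays, with 1 point per array, ordered by role. Circles are T lineage, triangles deficient lineage-negative and squares wildtype lineage-negative arrays, and the grey band runs from the 5th percentile (3.52) to the 95th percentile (6.51) of the olfactory receptor probesets. Timp3 and Thbs1 are the genes whose T lineage points stand clear of both lineage-negative groups by the widest margins.

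Of the 34 members, 5 passed the test in at least 1 comparison: Timp3, Thbs1, Tpm1, Lox and Cxcl12. Between T lineage and wildtype lineage-negative cells, Timp3 and Tpm1 rose, Thbs1 fell and 31 did not pass. The background over all tested probesets was 7.66% called higher and 10.4% called lower, so 2 and 1 of 34 were not more frequent than calls at large. Between T lineage and deficient lineage-negative cells, Timp3 rose, Thbs1, Lox and Cxcl12 fell and 30 did not pass, beside 5.98% of all tested probesets called higher and 8.16% called lower. Between deficient and wildtype lineage-negative cells 0 of the 34 were called by limma, beside 0.00459% of all tested probesets called in either direction, which is 1 probeset. An unadjusted limma p under 0.05 was reached by 5 of the 34 members and by 1071 of the 21789 tested probesets. These 5, Lox, Timp1, Pdgfrb, Cxcl12 and Cald1, were all higher in deficient cells. Both T lineage comparisons use the same T lineage arrays, so their calls are not independent of each other.

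The median difference of the members lay close to that of all tested probesets in each comparison. The median log2 difference over the 34 members was 0.06 for T lineage minus wildtype lineage-negative cells, where all tested probesets had 0.04. It was 0.04 for T lineage minus deficient lineage-negative cells, again with 0.04 over all tested probesets. For deficient minus wildtype lineage-negative cells it was 0.01, where all tested probesets had -0.01. Because these are bulk samples, fewer stromal cells and less RNA per stromal cell cannot be told apart in any of these values.

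**Figure D2:**
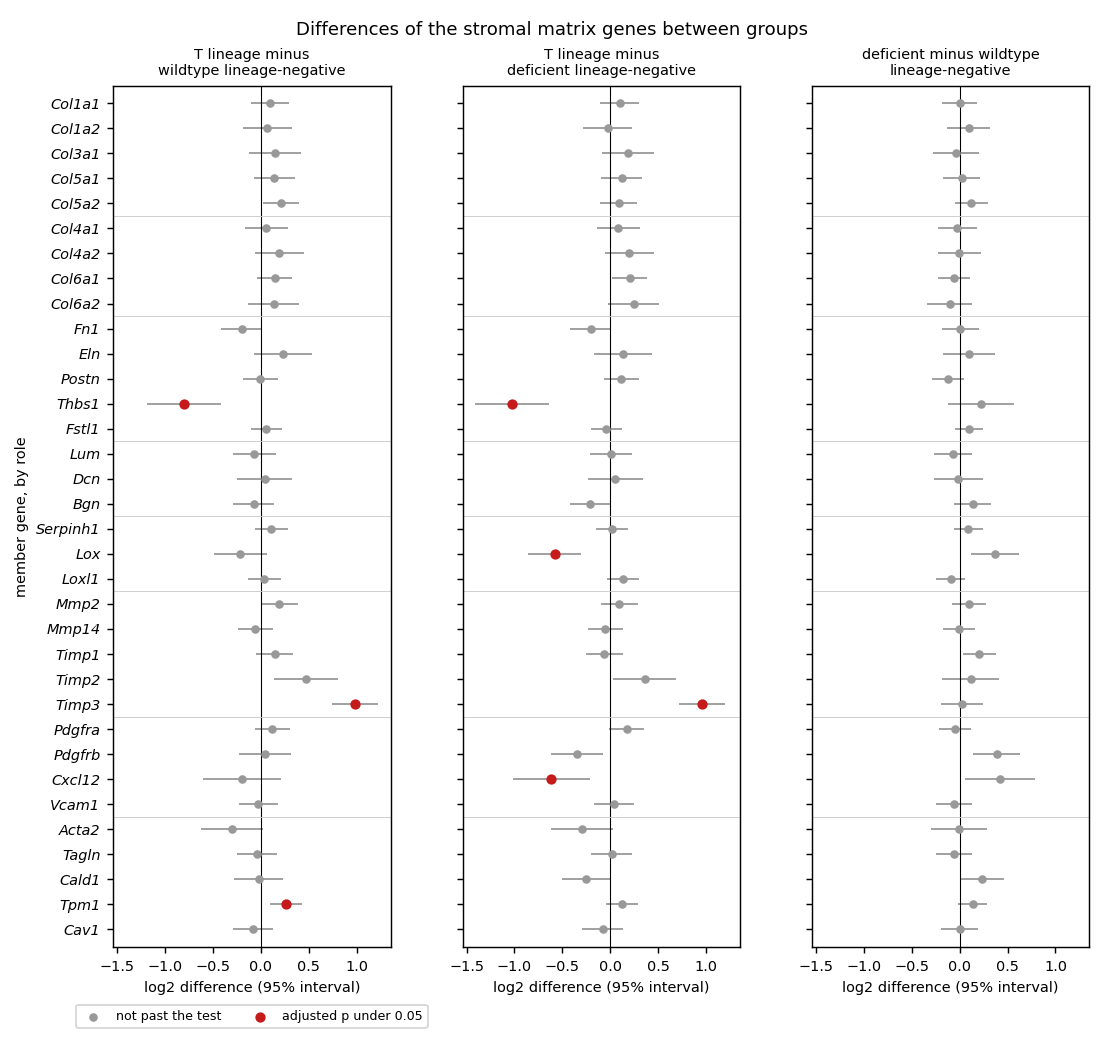
Log2 difference with its 95% confidence interval (horizontal axes) for each of the 34 stromal matrix genes in the 3 comparisons, from limma. Red points have an adjusted p under 0.05: Thbs1, Timp3 and Tpm1 on the left, Thbs1, Lox, Timp3 and Cxcl12 in the middle, and no gene on the right.

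The regions just before the start sites of 3 of the 5 called genes, the ones reported here among the 21 members with a RefSeq promoter window (build GRCm38.p6), are shown because these genes moved in different directions in the same cells. Timp3 and Tpm1 were higher in T lineage cells than in wildtype lineage-negative cells, and Cxcl12 was lower than in deficient lineage-negative cells. Each run holds the 250 bases upstream of the start, in the direction of transcription. Capitals mark matches on either strand to short motifs. The letters GGGCGG spell the GC box of many promoters. The Notch effector RBPJ binds sites with the core TGGGAA. Factors of the TCF/LEF family bind sites with the core CTTTGA or with a second form of that core, which reads CTTTGT on the same strand. The TATA box was searched as the letters TATAAA only. These windows lie at chr10:86300162-86300411 on the plus strand for Timp3, at chr9:67049214-67049463 on the minus strand for Tpm1 and at chr6:117168285-117168534 on the plus strand for Cxcl12.
Timp3: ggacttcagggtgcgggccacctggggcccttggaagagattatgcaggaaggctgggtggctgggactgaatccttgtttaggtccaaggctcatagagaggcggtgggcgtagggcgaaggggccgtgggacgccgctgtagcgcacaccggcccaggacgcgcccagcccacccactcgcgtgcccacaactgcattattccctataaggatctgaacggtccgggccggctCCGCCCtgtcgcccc
Tpm1: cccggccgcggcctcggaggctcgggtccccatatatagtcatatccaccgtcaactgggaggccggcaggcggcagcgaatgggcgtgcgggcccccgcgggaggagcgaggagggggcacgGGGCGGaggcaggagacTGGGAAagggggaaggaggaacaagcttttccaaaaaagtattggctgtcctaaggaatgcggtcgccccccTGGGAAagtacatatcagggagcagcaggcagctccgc
Cxcl12: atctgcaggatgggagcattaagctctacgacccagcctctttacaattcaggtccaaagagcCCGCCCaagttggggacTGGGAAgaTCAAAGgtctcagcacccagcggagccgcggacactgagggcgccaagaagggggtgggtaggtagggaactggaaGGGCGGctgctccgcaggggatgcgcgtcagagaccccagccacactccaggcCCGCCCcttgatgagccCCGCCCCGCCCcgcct
The Timp3 window held 1 GC box, the Tpm1 window 1 GC box and 2 RBPJ cores, and the Cxcl12 window 5 GC boxes, 2 of them overlapping at the downstream end, with 1 RBPJ core and 1 TCF/LEF core. None of the 3 windows held TATAAA. Over the 25 windows of the 21 members, GGGCGG occurred in 60% and TGGGAA in 20%, where 32.7% and 21.6% of all 32851 windows of the same length held them. CTTTGA occurred in 16% of the members' windows and in 13.8% of all, CTTTGT in 8% and 16.5%, and TATAAA in 16% and 12.4%. A match is a match of letters and was not tied to binding by any measurement here.

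The fibrillar collagens, which form the tension-bearing fibres of connective tissue, did not differ between groups by the test. Col1a1, the main chain of type I collagen, read 7.64 and 7.64 in the T lineage arrays, against 7.42, 7.69 and 7.51 in the deficient and 7.56, 7.60 and 7.46 in the wildtype lineage-negative arrays. Its partner chain Col1a2 read 7.39 and 7.17 in T lineage, against 7.16, 7.52 and 7.23 in deficient and 7.25, 7.27 and 7.12 in wildtype lineage-negative arrays. Col3a1, the type III chain of pliable tissues, read 6.84 and 6.68 in T lineage, against 6.47, 6.78 and 6.48 in deficient and 6.54, 6.81 and 6.49 in wildtype lineage-negative arrays. The deficient array 2 was the highest of its group for all 3 genes, and for each of the 3 the deficient range took in or overlapped the other groups' values. The deficient minus wildtype difference was -0.00 for Col1a1 (95% interval -0.18 to 0.18; the sign turned under the other scalings), 0.09 for Col1a2 and -0.04 for Col3a1, with the smallest limma adjusted p of the 5 fibrillar chains at 0.999. Col5a1 and Col5a2, minor chains that set fibre thickness, did not pass either.

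The collagens of basement membranes and beaded filaments did not pass either. Col4a1 and Col4a2, the basement membrane chains, and Col6a1 and Col6a2, chains of the filaments around cells, had T lineage minus deficient differences from 0.08 to 0.24 and T lineage minus wildtype lineage-negative differences from 0.06 to 0.19, with smallest adjusted p of 0.145 and 0.288. All 9 collagen chains together had a positive T lineage minus wildtype lineage-negative difference, from 0.06 to 0.21, and none passed. The sign was positive for all 9 under the 2 other scalings too. Against deficient cells 8 of the 9 were positive, from -0.03 to 0.24, and none passed. For 4 chains, Col1a1, Col5a2, Col4a2 and Col6a1, both T lineage arrays lay above all 3 wildtype lineage-negative arrays. Of all members 11 did so and 2 lay wholly below, where 28% and 19.8% of all tested probesets did.

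The collagen chains stood high or low together in single arrays. Within the deficient group, array 2 held the highest and array 1 the lowest value for 9 of 9 chains, and T lineage array 1 was above T lineage array 2 for 7 of 9. The mean of the 9 chains, set against the wildtype lineage-negative mean, stood at 0.20 and 0.07 in the T lineage arrays, at -0.12, 0.16 and -0.04 in the deficient arrays and at -0.00, 0.07 and -0.07 in the wildtype lineage-negative arrays. The deficient arrays thus spanned more than the wildtype lineage-negative arrays and lay on both sides of 0. Over the 34 members, deficient array 2 was the highest of its group for 23 (67.6%), where it was the highest for 43.5% of all tested probesets, and deficient array 1 was the lowest for 22 (64.7%, against 44.1% of all). T lineage array 1 was above T lineage array 2 for 26 members (76.5%), against 53.9% of all tested probesets. With the arrays quantile-normalised a second time, deficient array 2 was the highest for 55.9% of the members and 45% of all tested probesets. For the olfactory receptor probesets that share was 47.3%. With each array centred on its median, deficient array 2 was the highest for 52.9% of the members and 33.1% of all tested probesets. Under both of these scalings, deficient array 2 stayed the highest and deficient array 1 the lowest for 9 of 9 collagen chains. T lineage array 1 stayed above T lineage array 2 for 7 of 9. Deficient array 1 was the lowest for 70.6% of the members under both, beside 53.3% and 46.5% of all tested probesets. T lineage array 1 was above array 2 for 73.5% of the members under both, beside 52.1% and 45.4% of all. Among the olfactory receptor probesets as deposited, deficient array 2 was the highest for 48.2% and T lineage array 1 above array 2 for 60.3%. With median centring these shares were 36.6% and 51%, and deficient array 3 was then the highest more often, for 43.2%. Among the 15 leukocyte genes as deposited, deficient array 2 was the highest for 20%. The part of carried-over stromal RNA in this lean of single arrays was not tested.

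**Figure D3:**
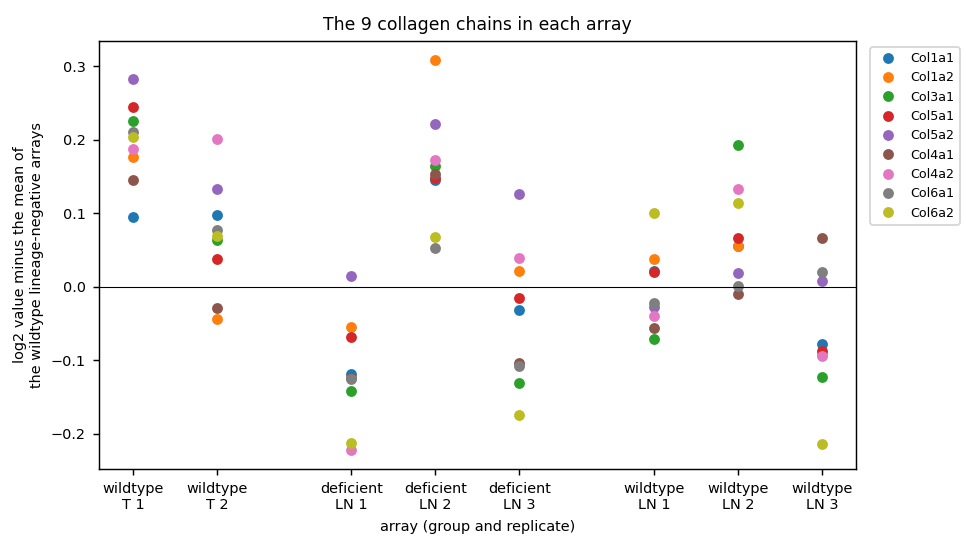
Log2 value of each of the 9 collagen chains in each array minus its mean over the wildtype lineage-negative arrays (vertical axis), with arrays along the horizontal axis and 1 colour per gene. All 9 points of deficient array 2 lie above those of the same genes in deficient arrays 1 and 3, and all 9 points of T lineage array 1 lie above 0.

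Among the matrix glycoproteins Thbs1 fell in T lineage cells. Thbs1 encodes thrombospondin 1, an adhesive glycoprotein that platelets, macrophages and fibroblasts secrete. It read 7.53 and 7.07 in T lineage arrays, against 8.08, 8.55 and 8.35 in deficient and 8.07, 7.89 and 8.36 in wildtype lineage-negative arrays. Both T lineage values lay below every lineage-negative value, and the lineage-negative groups overlapped. The fall was 1.74-fold against wildtype lineage-negative cells (log2 difference -0.80, SE 0.17, limma adjusted p = 0.00861) and 2.03-fold against deficient cells (-1.02, SE 0.17, adjusted p = 0.00253). Without T lineage array 2 the difference from wildtype lineage-negative cells was -0.57 with an adjusted p of 0.0897. Wherever a T lineage array is left out, the lone remaining array is assumed to vary like those of the other groups. Macrophage genes moved with it: 12 of 14 monocyte and macrophage genes fell in T lineage cells in both comparisons, with list means of 6.87 to 7.19 in T lineage, 9.27 to 9.45 in deficient and 9.39 to 9.69 in wildtype lineage-negative arrays. Of the 9 megakaryocyte and platelet genes 2 fell and 1 rose in both comparisons. Over all tested probesets 10.4% fell and 7.66% rose against wildtype lineage-negative cells, and 8.16% fell and 5.98% rose against deficient cells. The part of monocytes, macrophages, megakaryocytes and platelets in the value of Thbs1 was not tested.

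The other glycoproteins did not pass. Fn1, fibronectin, read 6.46 and 6.13 in T lineage, against 6.47, 6.57 and 6.46 in deficient and 6.47, 6.53 and 6.49 in wildtype lineage-negative arrays. It passed as lower in both comparisons when T lineage array 1 was left out, a call that rests on the single value 6.13. Postn, periostin, a matricellular protein of fibroblasts, read 4.73 and 4.93 in T lineage, against 4.68, 4.76 and 4.71 in deficient and 4.88, 4.81 and 4.82 in wildtype lineage-negative arrays. It was the 1 member whose deficient arrays all lay below the wildtype lineage-negative arrays, with a log2 difference of -0.12. Eln, elastin, and Fstl1, a secreted glycoprotein of mesenchymal cells, did not pass in any comparison.

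The small leucine-rich proteoglycans, which bind collagen fibres, lay under the 95th percentile of the olfactory probesets, and none passed the test. Dcn, decorin, read 6.05 and 6.17 in T lineage, against 5.78, 6.27 and 6.11 in deficient and 5.98, 6.06 and 6.16 in wildtype lineage-negative arrays. Lum, lumican, was the dimmest member, at 4.04 and 4.16 in T lineage, against 4.03, 4.00 and 4.25 in deficient and 4.05, 4.25 and 4.21 in wildtype lineage-negative arrays. All groups overlapped for both genes, and the deficient minus wildtype differences were -0.01 (95% interval -0.27 to 0.24) and -0.07. Bgn, biglycan, did not pass in any comparison.

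Of the genes for folding and crosslinking collagen, Lox was lower in T lineage than in deficient lineage-negative cells. Lox encodes lysyl oxidase, the secreted enzyme that starts the crosslinking of collagen and elastin. It read 5.23 and 4.96 in T lineage, against 5.81, 5.77 and 5.44 in deficient and 5.35, 5.37 and 5.20 in wildtype lineage-negative arrays, all within the olfactory range. The deficient arrays lay above both other groups, and T lineage and wildtype lineage-negative arrays overlapped. The log2 difference was -0.58 against deficient cells (SE 0.12, limma adjusted p = 0.00994) and -0.21 against wildtype lineage-negative cells (adjusted p = 0.297). Deficient exceeded wildtype lineage-negative cells by 0.37 (95% interval 0.12 to 0.61, adjusted p = 0.731). Without T lineage array 2 the difference from deficient cells was -0.44 with an adjusted p of 0.101. Serpinh1, the collagen chaperone of the endoplasmic reticulum, and Loxl1, a relative of Lox, did not pass.

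Among the proteases and their inhibitors Timp3 rose, with the smallest adjusted p of the 34 members. Timp3 encodes a tissue inhibitor of metalloproteinases that stays bound to the matrix and also inhibits shedding enzymes at the cell surface. It read 7.48 and 7.14 in T lineage arrays, against 6.38, 6.30 and 6.37 in deficient and 6.45, 6.33 and 6.21 in wildtype lineage-negative arrays. Both T lineage values lay above every lineage-negative value, and the lineage-negative values lay within the olfactory range. On the log2 scale T lineage cells exceeded wildtype lineage-negative cells by 0.98 (SE 0.11, limma adjusted p = 0.000105) and deficient cells by 0.96 (SE 0.11, adjusted p = 0.000153). No fold change is given, because the lineage-negative values were not shown to lie above background. The call held in both comparisons under every alternative run.

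The inhibitor Timp2, which also takes part in the activation of the protease Mmp2, read 7.88 and 7.32 in T lineage, against 7.08, 7.42 and 7.22 in deficient and 7.13, 7.08 and 7.17 in wildtype lineage-negative arrays. It missed the threshold against wildtype lineage-negative cells (0.47, SE 0.15, limma adjusted p = 0.0517) and against deficient cells (0.36, adjusted p = 0.153), with T lineage array 1 well above the other arrays. Mmp2 and Mmp14, the gelatinase and its membrane-bound activator, and the inhibitor Timp1 did not pass. Thus 1 of the 5 genes of this role, Timp3, was called in each T lineage comparison. Over all tested probesets, 7.66% were called higher against wildtype lineage-negative cells and 5.98% against deficient cells.

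Cxcl12 and Pdgfrb, markers of niche-forming stroma, gave the largest differences by size between the genotypes, and neither passed that test. Cxcl12 encodes the chemokine with which marrow stroma retains progenitors. It read 6.31 and 6.12 in T lineage, against 7.27, 6.72 and 6.495 in deficient and 6.47, 6.47 and 6.28 in wildtype lineage-negative arrays. The deficient arrays lay above all others, with array 1 far above arrays 2 and 3. Cxcl12 was lower in T lineage than in deficient cells by a log2 difference of -0.62 (SE 0.18, limma adjusted p = 0.0475). This call is fragile, since without deficient array 1 the difference was -0.39 with an adjusted p of 0.0571, and it was lost in 10 of 15 alternatives. It was also lost on leaving out each of the other arrays but deficient array 3, with adjusted p of 0.066 without deficient array 2, 0.0688, 0.067 and 0.0609 without wildtype lineage-negative arrays 1, 2 and 3, and 0.0968 and 0.222 without T lineage arrays 1 and 2. Against wildtype lineage-negative cells T lineage differed by -0.20 (adjusted p = 0.533). Deficient exceeded wildtype lineage-negative cells by 0.42 (95% interval 0.06 to 0.78, adjusted p = 0.959), and by 0.20 without deficient array 1.

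The platelet-derived growth factor receptors, which mark fibroblasts and pericytes, passed in no comparison. Pdgfrb read 7.92 and 8.17 in T lineage, against 8.21, 8.39 and 8.58 in deficient and 8.10, 7.87 and 8.04 in wildtype lineage-negative arrays. The deficient arrays lay above all others, by 0.39 over wildtype lineage-negative cells (95% interval 0.14 to 0.63, limma adjusted p = 0.688) and with T lineage minus deficient at -0.35 (adjusted p = 0.0965). T lineage minus deficient passed when deficient array 1 was left out. Pdgfra read 6.57 and 6.36 in T lineage, against 6.26, 6.30 and 6.31 in deficient and 6.35, 6.38 and 6.29 in wildtype lineage-negative arrays, so that its deficient minus wildtype difference, -0.05, had the other sign. Vcam1, the adhesion molecule with which stroma holds progenitors, did not pass.

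Of the contractile genes Tpm1 rose. Tpm1 encodes a tropomyosin that winds along actin filaments in muscle and in most other cells. It was the brightest member and read 8.84 and 8.88 in T lineage, against 8.68, 8.74 and 8.80 in deficient and 8.59, 8.55 and 8.66 in wildtype lineage-negative arrays. The 3 groups did not overlap, with T lineage highest and wildtype lineage-negative lowest. The rise over wildtype lineage-negative cells was 0.26 (SE 0.08, limma adjusted p = 0.0371). It lost the call with each T lineage or wildtype lineage-negative array left out, with adjusted p of 0.111 and 0.167 without T lineage arrays 1 and 2 and of 0.092, 0.11 and 0.0511 without wildtype lineage-negative arrays 1, 2 and 3. T lineage minus deficient was 0.12 (adjusted p = 0.351) and deficient minus wildtype 0.14 (adjusted p = 0.9995).

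The remaining contractile and caveolar genes did not pass. Cald1, caldesmon, an actin-binding regulator of contraction, read 6.07 and 5.99 in T lineage, against 6.53, 6.19 and 6.15 in deficient and 6.11, 5.95 and 6.11 in wildtype lineage-negative arrays. Its deficient minus wildtype difference of 0.23 became 0.11 without deficient array 1, the same array that was far out for Cxcl12. Acta2, smooth muscle actin, read 6.57 and 6.02 in T lineage, against 6.70, 6.69 and 6.39 in deficient and 6.55, 6.67 and 6.57 in wildtype lineage-negative arrays. It too passed as lower when T lineage array 1 was left out, a call that rests on the single value 6.02. Tagln, an actin-binding protein of smooth muscle, and Cav1, the coat protein of caveolae, did not pass.

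Between the genotypes, then, no member passed. The intervals are per gene, are not adjusted for the number of genes, and bound differences in probeset value, not in stromal RNA. Signal over background was not shown for the 15 members at or under the olfactory 95th percentile. Differences ran from -0.12 to 0.42, with 18 positive and 16 negative. All 34 intervals at 95% stayed within 1 log2 unit, 30 stayed within 0.5, and 29 held 0, with a median half-width of 0.19. The size of the difference without its sign had a median of 0.09 for the members and 0.06 for all tested probesets. For 9 members all deficient arrays lay above all wildtype lineage-negative arrays, namely Fstl1, Serpinh1, Lox, Mmp2, Timp1, Pdgfrb, Cxcl12, Cald1 and Tpm1, where 3.93% of all tested probesets did. For 1, Postn, they all lay below, where 6.01% of all did. With the arrays quantile-normalised a second time these counts were 8 and 2, beside 4.85% and 4.76% of all, and with arrays centred on their medians 7 and 2, beside 4.22% and 5.22%. By role the 9 are Lox and Serpinh1 of collagen folding and crosslinking, Mmp2 and Timp1 of the proteases and inhibitors, and Fstl1 of the glycoproteins. The rest are Pdgfrb and Cxcl12 of stromal receptors and niche factors, and Cald1 and Tpm1 of the contractile genes. None is a collagen or a proteoglycan. Fstl1, Serpinh1, Lox, Timp1 and Cald1 are among the members at or under the olfactory 95th percentile of 6.51, and Cxcl12 lay just above it at 6.52. The part of carried-over stromal RNA in these differences was not tested. Against deficient cells, both T lineage arrays lay above for 7 members and below for 7, where 23.6% and 17.1% of all tested probesets did.

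A longer list of other stromal genes gave 0 genotype calls as well. The list held 62 such genes, including laminins, fibulins and mesenchymal transcription factors. For 2 of them all deficient arrays lay above all wildtype lineage-negative arrays and for 4 below, beside 3.93% and 6.01% of all tested probesets. By limma 0 were called, and 6 of the 62 had an unadjusted p under 0.05, as did 1071 of the 21789 tested probesets. The nearest to a call was Sparc, a collagen-binding matrix protein, which exceeded wildtype by 0.54 in deficient lineage-negative cells (SE 0.08, adjusted p = 0.09975), a larger difference than that of any member. Between T lineage and wildtype lineage-negative cells 4 of the 62 rose and 5 fell, and against deficient cells 3 rose and 5 fell. The shares of all tested probesets were 7.66% and 10.4% in the first of these comparisons and 5.98% and 8.16% in the second. Deficient array 2 was the highest of its group for 58.1% of the 62 genes as deposited, against 43.5% of all tested probesets. With the arrays quantile-normalised a second time these shares were 46.8% and 45%, and with median centring 41.9% and 33.1%. Dll4, the Notch ligand for which the line is named, read 6.73 and 6.68 in T lineage, against 6.75, 6.64 and 6.66 in deficient and 6.62, 6.63 and 6.51 in wildtype lineage-negative arrays. It passed in no comparison, with a T lineage minus wildtype lineage-negative difference of 0.12 (limma adjusted p = 0.343). The labels do not say which coding sequence the line carries, so whether this probeset can see the transgene is unknown.

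**Figure D4:**
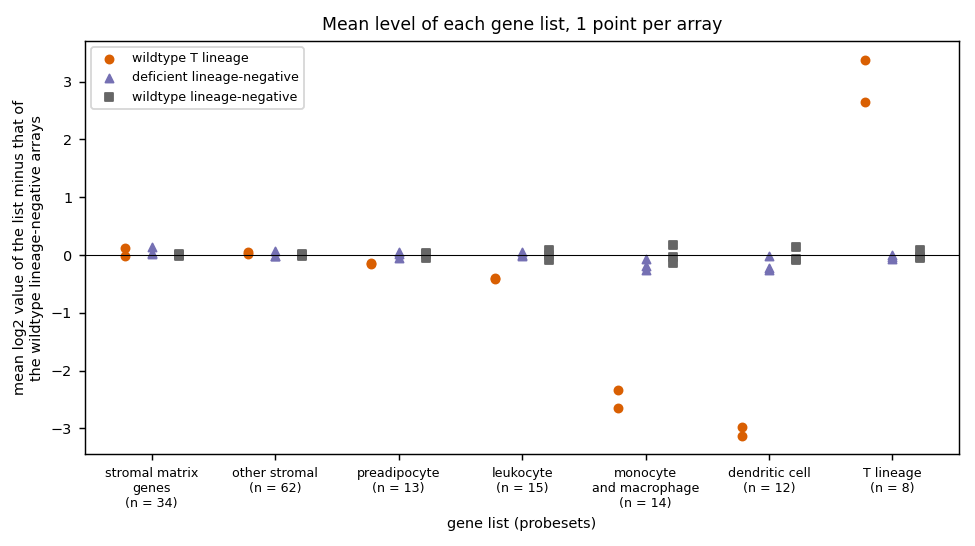
Mean log2 value of each gene list in each array minus its mean over the wildtype lineage-negative arrays (vertical axis), with 1 point per array and lists along the horizontal axis. The stromal matrix genes stand at 0.12 and -0.02 in the T lineage arrays and at 0.01, 0.15 and 0.03 in the deficient arrays, while the monocyte, dendritic and T lineage genes part by more than 2 log2 units between T lineage and wildtype lineage-negative arrays.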

How the data were processed

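Gene expression was measured on 8 arrays: wildtype T lineage cells (2 replicates) and lineage-negative cells of deficient and wildtype mice (3 each). Each array took 10 ng of RNA, amplified with the NuGEN WTA-Ovation Pico kit, per the labels' protocols. The deposited values are log2 per probeset, made by the authors with RMA in Partek 6.5, per the submitters' processing notes, and the log2 scale was read from their range. Scan dates and the annotation's build were not given in the sources used here. No detection level was used, and precision is limited by the number of arrays.

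Of 35399 probesets, 11989 without a gene and 1621 with several were left out. Symbols were updated through the gene identifier, which matched RefSeq for 99.6% of the 21789 kept. All 8 arrays were fitted in 3 groups by lmFit and eBayes of limma 3.58.1 (R 4.3.3), with 5 residual degrees of freedom. Two-sided p-values received Benjamini-Hochberg adjustment over those 21789 probesets, with calls at adjusted p under 0.05. The fit was tested on simulated data. The members and lists were chosen with earlier results of these data known. Given with a value in every array were called members, the 8 defining stromal members, Cxcl12 and the 5 of largest genotype difference by size. Fn1, Timp2 and Acta2 were added after their values were seen. Of the other lists, called genes of smallest p could be named. Alternatives were a second quantile normalisation, median centring, leaving out the dimmest 40%, all probesets of the table, fits of only the groups compared, array weights, a trended robust prior, a replicate block and leaving out each array.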

Additional observations from a re-analysis of the deposited data

How the results depend on the processing

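No member was called between deficient and wildtype lineage-negative cells under any of 16 alternatives, while calls over all tested probesets ranged from 0 to 12. Called members ranged from 2 to 4 for T lineage minus wildtype lineage-negative and from 2 to 5 for T lineage minus deficient cells, where 2 was reached on leaving out the dimmest 40% of probesets (3 to 5 on leaving out single arrays), which tests 16 of the 34 members. Median differences over the members ranged from -0.03 to 0.07 for deficient minus wildtype, from 0.03 to 0.14 for T lineage minus wildtype lineage-negative and from 0.00 to 0.13 for T lineage minus deficient cells. The deficient minus wildtype difference of Col1a1 turned to 0.0279 under a second quantile normalisation and 0.0015 under median centring, and that of Dcn to 0.0018 with array weights; the cause was not tested. Leaving out single arrays gave -0.0751 to 0.0565 for Col1a1, -0.12 to 0.12 for Dcn, -0.14 to 0.0606 for Col3a1 and -0.0164 to 0.17 for Col1a2. Timp2 passed against wildtype lineage-negative cells under several alternatives, among them median centring. The adjusted p of Tpm1 against wildtype lineage-negative cells ranged from 0.0113 to 0.167, and that of Cxcl12 against deficient cells from 0.00975 to 0.222. The labels do not pair arrays by number. Deviations of same-numbered arrays correlated at -0.13, 0.02 and 0.04 between the lineage-negative groups, at 0.16 and 0.12 between T lineage and wildtype lineage-negative arrays, and at -0.14 and -0.25 between T lineage and deficient arrays. With the replicate block, 0, 3 and 4 members were called in the 3 comparisons, as without it. The counts of arrays that did not overlap under the other scalings were added after the data were seen. Signal over background limits the 15 members at or under the olfactory 95th percentile.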

Other observations

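The OP9 line has properties of preadipocytes, and genes of that cell type did not move one way. Of 13 such genes measured, 1 rose and 3 fell between T lineage and wildtype lineage-negative cells, beside 7.66% and 10.4% of all tested probesets. Between T lineage and deficient lineage-negative cells 2 rose and 2 fell, beside 5.98% and 8.16% of all. Between the genotypes 0 were called by limma, with 0 at an unadjusted p under 0.05. Pparg, the nuclear receptor that drives fat cell formation and is also made in some blood cells, stood at 7.58 ± 0.02 in T lineage cells (SD, n = 2), 6.63 ± 0.12 in deficient and 6.69 ± 0.15 in wildtype lineage-negative cells (SD, n = 3 each). It rose by 0.89 over wildtype lineage-negative cells (limma adjusted p = 0.000146). Cd36, a fatty acid and scavenger receptor of fat cells and of macrophages, stood at 4.89 ± 0.09 in T lineage cells (SD, n = 2), 6.99 ± 0.33 in deficient and 6.80 ± 0.20 in wildtype lineage-negative cells (SD, n = 3 each), a log2 difference from wildtype lineage-negative cells of -1.90. Cebpa, a transcription factor of fat cells and of myeloid cells, fell by 0.77 in the same comparison.

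Among the 62 other stromal genes, Vim, the intermediate filament protein of mesenchymal cells and of leukocytes, fell by 1.08 in T lineage relative to wildtype lineage-negative cells (limma adjusted p = 3.6e-06). In that comparison 4 of the 62 rose and 5 fell, beside 7.66% and 10.4% of all tested probesets. Angpt1 was among those that rose, by 0.57 (limma adjusted p = 0.00257). Sparc read 6.66 and 6.79 in T lineage, against 7.27, 7.32 and 7.20 in deficient and 6.62, 6.84 and 6.73 in wildtype lineage-negative arrays. It was lower in T lineage than in deficient cells by a log2 difference of -0.54 (adjusted p = 0.0021). All 3 deficient arrays lay above all the others, a pattern shared with the members Lox, Pdgfrb, Cxcl12 and Cald1. Of the 12 dendritic cell genes, 10 fell in T lineage cells in both comparisons. Of all tested probesets 10.4% fell against wildtype lineage-negative cells and 8.16% against deficient cells.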
